A study of Mus musculus with 15 samples.

Results

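Expression of 10 chemokine ligands was followed across 15 RNA-sequencing libraries of mouse renal tumors: CXCL9, CXCL10, CXCL16, CX3CL1, CXCL1, CXCL2, CXCL5, CCL2, CCL5 and CCL20. They were chosen by symbol, and all 10 were present among the 24891 genes of the expression table. The members, and the gene lists and motifs set beside them, were chosen with earlier results of these data known. Their counts beside shares of all genes or promoters are therefore descriptions and no independent test. The tumors were grown under the skin of wild-type C57BL/6J mice from 105K cells, a Tsc2-deficient mouse kidney tumor line, after transduction with a non-target shRNA (sh-NC) or with 1 of 2 shRNAs against B7-H3, an immune checkpoint protein of the B7 family encoded by CD276. Bulk tumors were sequenced with sh-NC or sh-B7-H3 (1). Sorted tumor cells, obtained by magnetic depletion of non-tumor cells, were sequenced with these and also with the second shRNA, sh-B7-H3 (2). Each of these 5 groups held 3 libraries. All groups shared the Tsc2-deficient line and the immune-competent male hosts. Each shRNA line was a puromycin-selected pool of transduced cells, so a shRNA and its pool cannot be told apart. Labels do not say whether libraries came from separate mice, and p-values measure the spread between libraries.

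Chemokines are small secreted proteins that guide leukocytes along gradients through receptors on the cell surface. CXCL9 and CXCL10 bind CXCR3 on activated T cells and NK cells and are classical targets of interferon-gamma. CXCL16 and CX3CL1 are made as transmembrane proteins that can be shed by ADAM10 and ADAM17, and bind CXCR6 and CX3CR1. CXCL1, CXCL2 and CXCL5 recruit neutrophils through CXCR2 and are targets of NF-kappaB. CCL2 recruits monocytes through CCR2, CCL5 recruits T cells and myeloid cells, and CCL20 is the ligand of CCR6.

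Of the 10 genes, 5 lie on chromosome 5, among them 2 pairs of close neighbours (GENCODE M21, build GRCm38, which is mm10). Cxcl9 (chr5:92321347-92328079) and Cxcl10 (chr5:92346638-92348889), both on the minus strand, are 18558 bp apart with 0 protein-coding genes lying wholly between them. Cxcl1 (chr5:90891241-90893115) and Cxcl2 (chr5:90903871-90905938), both on the plus strand, are 10755 bp apart, also with 0 protein-coding genes lying wholly between them. Genes that only reach into a gap were not counted. Cxcl5 lies at chr5:90759360-90761624 on the plus strand. Cxcl16 (chr11:70453983-70459984, minus strand), Ccl2 (chr11:82035571-82037453, plus strand) and Ccl5 (chr11:83525778-83530518, minus strand) share chromosome 11 but are separated by many genes. Cx3cl1 lies at chr8:94772009-94782427 and Ccl20 at chr1:83116766-83119167, both on the plus strand.

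Promoters are shown for the 3 members with the most motif matches among those that RefSeq's promoter table (GRCm38.p6) held, since their RNA levels differed between groups. The table held 6 of the 10 members (CXCL9, CXCL10, CX3CL1, CXCL1, CXCL2 and CCL20). Each line below gives the 250 bases before the RefSeq start, 5′ to 3′ on the strand of the gene, with motif matches in capitals. CXCL10 lies on the minus strand at chr5:92348890-92349139, CXCL1 on the plus strand at chr5:90890995-90891244 and CXCL2 on the plus strand at chr5:90903649-90903898.

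CXCL10: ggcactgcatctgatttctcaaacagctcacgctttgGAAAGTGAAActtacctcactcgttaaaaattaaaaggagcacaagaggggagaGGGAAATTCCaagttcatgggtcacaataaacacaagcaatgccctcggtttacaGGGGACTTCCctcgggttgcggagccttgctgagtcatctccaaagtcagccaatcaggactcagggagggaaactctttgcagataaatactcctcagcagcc

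CXCL1: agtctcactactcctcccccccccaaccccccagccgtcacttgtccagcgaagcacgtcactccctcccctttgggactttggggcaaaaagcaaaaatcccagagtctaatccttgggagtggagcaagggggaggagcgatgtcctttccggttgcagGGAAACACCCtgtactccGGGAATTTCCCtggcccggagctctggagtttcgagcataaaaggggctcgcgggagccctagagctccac

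CXCL2: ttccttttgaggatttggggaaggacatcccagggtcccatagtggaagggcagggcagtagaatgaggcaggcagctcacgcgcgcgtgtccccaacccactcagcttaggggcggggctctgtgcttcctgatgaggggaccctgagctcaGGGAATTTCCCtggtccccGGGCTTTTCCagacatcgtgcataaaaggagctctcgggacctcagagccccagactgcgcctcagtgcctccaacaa

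The motifs were searched on both strands of the table's windows of 300 bases, from 250 before to 50 after the start. They were a GAS-type motif (TTC, any 3 bases, GAA), an ISRE-like motif (GAAA, any 2 bases, GAAA) and a kappaB-like motif (GGG, any 3 bases, TTCC). In CXCL10 the capitals mark an ISRE-like match whose first base is at -213, and kappaB-like matches at -159 and -104. In CXCL1 they mark a kappaB-like match on the opposite strand at -89, and matches on both strands that overlap by all but 1 base at -71 and -70. In CXCL2 they mark such an overlapping pair at -97 and -96 and a further match at -78. The kappaB-like motif was held by 4 of the 6 member promoters, the fourth being CCL20, and by 5.56% of 32851 promoters. The ISRE-like motif was held by 1 of the 6, and by 3.44% of all promoters. The GAS-type motif was held by 0 of the 6, and by 8.3% of all promoters. Neither CXCL9 nor CX3CL1 held any of these letters in its window, which says nothing about more distant sequence. A match is a description of the letters and no evidence of a bound factor.

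The values below are scaled FPKM, the deposited fragments per kilobase, already scaled to library size, divided by a factor for each library. They are per length, so levels can be compared between genes. Factors ran from 0.65 to 1.18, and relative sequencing depth from 0.468 to 1. Total read numbers are not in the table used here. RNA of the targeted gene, CD276, did not follow all labels. It was at 34.0, 20.0 and 17.3 scaled FPKM in the sorted cells labelled sh-NC (replicates 1 to 3, the order used throughout), at 7.29, 14.0 and 11.5 in those labelled sh-B7-H3 (1), and at 23.3, 25.4 and 25.7 in those labelled sh-B7-H3 (2). Bulk tumors labelled sh-NC had 20.8, 23.2 and 23.5, and those labelled sh-B7-H3 (1) had 22.3, 17.8 and 24.4. CD276 RNA was thus below every control library only in the sorted cells labelled sh-B7-H3 (1), by -1.04 ± 0.29 on the log2(scaled FPKM + 1) scale (SE, limma, adjusted p = 0.0547). In the sorted cells labelled sh-B7-H3 (2) the difference was 0.12 ± 0.23 (adjusted p = 0.775), and in bulk tumors it was -0.07 ± 0.13 (adjusted p = 0.709). Directions given for a shRNA below are therefore directions between libraries labelled with it and libraries labelled sh-NC.

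Host-cell RNA also has to be read beside the ligands, because leukocytes make several of them. Summed over 8 leukocyte markers (PTPRC and others), sorted libraries held 4.07 to 9.01 scaled FPKM, except for replicate 1 of the sorted cells labelled sh-B7-H3 (2), which held 228. Bulk libraries held 189 to 394. That sorted library thus stood at the level of whole tumors. Its T-cell sum (7 of 8 markers in the table) was 21.7, against 1.70 and 2.03 in the other libraries of its group. Calls with the second shRNA against sh-NC are therefore also given without it. The remaining sorted libraries still differed by label. T-cell sums were 0.454 to 0.781 with sh-NC and 1.19 to 1.54 with sh-B7-H3 (1), most of it LCK, and CD3E was listed at 0 in all 3 sh-NC libraries. Macrophage and monocyte sums were 64.1 to 69.2 with sh-NC, 145 to 167 with sh-B7-H3 (1), and 132 in each of replicates 2 and 3 with sh-B7-H3 (2), most of it CD68 and CD14. CSF1R, the receptor of the macrophage growth factor CSF1, was at 0.567 to 1.30 with sh-NC, 4.76 to 5.21 with sh-B7-H3 (1), and 7.75 and 7.32 in those 2 libraries. ADGRE1, which encodes the macrophage antigen F4/80, stayed at or below 0.293 in these 8 libraries. Epithelial marker sums also separated by label, without overlap, from 817 to 999 in sorted cells with sh-NC to 1390 to 1791 in the 6 sorted sh-B7-H3 libraries, and from 741 to 839 in bulk tumors with sh-NC to 977 to 1293 with sh-B7-H3 (1). The epithelial adhesion gene EPCAM was at 17.2 to 27.4 in sorted sh-NC cells and 126 to 221 in the 6. These shifts moved with the ligands described next, and their part in the ligand values was not tested.

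**Figure D1:**
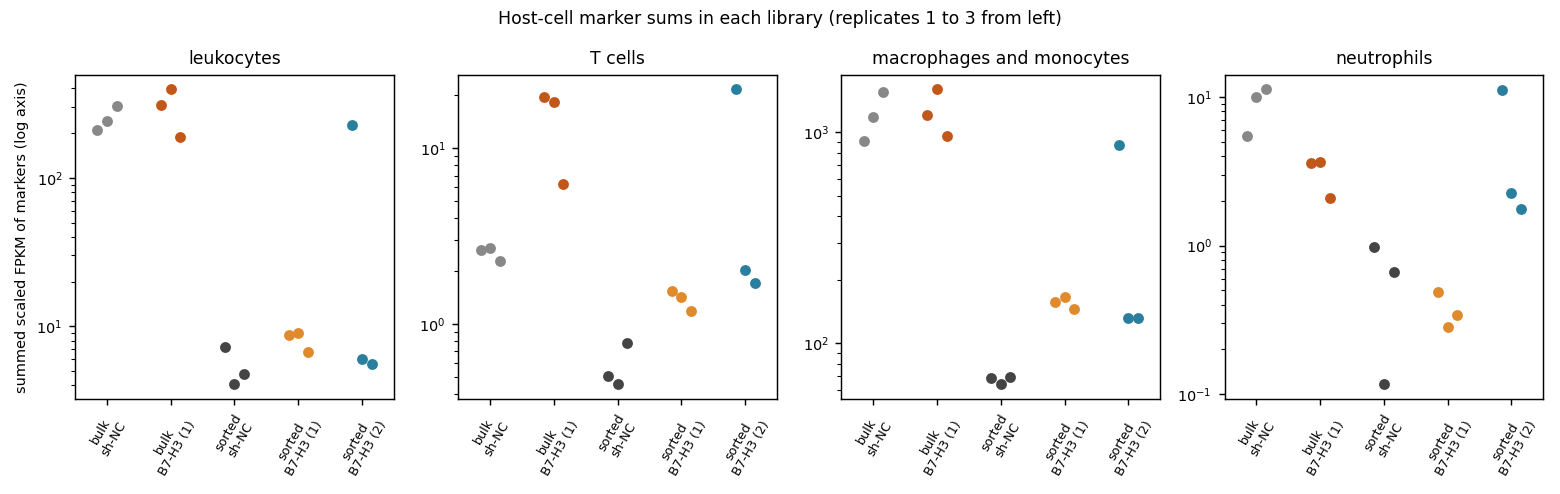
Summed scaled FPKM of leukocyte, T-cell, macrophage and monocyte, and neutrophil markers (log axes) for the 15 libraries, 1 point a library, by group. Sorted libraries sit far below bulk tumors in leukocyte markers, with the exception of replicate 1 of sorted cells labelled sh-B7-H3 (2), which holds 228.

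In sorted tumor cells, 7 of the 8 members that passed the filter on low values rose with the first shRNA, sh-B7-H3 (1), and 7 of 8 rose with the second, both against sh-NC. Over all genes tested, 9.03% rose in the first comparison and 11.7% in the second (limma, adjusted p below 0.05). The median log2 difference over the 8 members was 1.60 with sh-B7-H3 (1) and 2.13 with sh-B7-H3 (2), and that over all genes was 0.00 and 0.01. Both comparisons used the same 3 sh-NC libraries and are no independent repeats of each other. CXCL2 was below 1 scaled FPKM in every sh-NC library, so it passed the filter only through the libraries where it was high. With no filter, CXCL2 and CCL5 lost their calls with sh-B7-H3 (1) (adjusted p = 0.0742 and 0.0604). CXCL5 and CCL20 did not pass the filter. The members that rose differed in size and in how far the replicates spread, and are taken by their receptors.

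CXCL9, a ligand of CXCR3, had the largest log2 difference of the members tested in both comparisons at the pseudocount of 1. With the second shRNA, pseudocounts of 0.1 and 0.25 put CXCL2, which was low in the controls, ahead of it (4.47 and 4.10). The levels of CXCL9 in sorted cells were 4.83, 2.75 and 1.60 scaled FPKM with sh-NC, 69.9, 36.4 and 42.5 with sh-B7-H3 (1), and 62.8, 49.1 and 40.7 with sh-B7-H3 (2). All 6 sh-B7-H3 libraries were above all 3 sh-NC libraries, with a gap from 4.83 to 36.4. The log2 difference was 3.66 ± 0.33 with sh-B7-H3 (1), 12.7-fold (adjusted p = 2.42e-04), and 3.73 ± 0.29 with sh-B7-H3 (2), 13.3-fold (adjusted p = 1.48e-04). Without replicate 1 of the second shRNA, the library high in leukocyte markers, its difference was 3.57 ± 0.32 (adjusted p = 9.11e-04).

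CXCL10, the other ligand of CXCR3 and the neighbour of CXCL9, was at 5.86, 6.63 and 5.24 scaled FPKM with sh-NC, 57.0, 25.0 and 39.8 with sh-B7-H3 (1), and 64.1, 31.1 and 35.9 with sh-B7-H3 (2). Again the sh-NC libraries did not overlap the others, and replicate 1 was the highest with each shRNA. Relative to sh-NC, the log2 difference was 2.52 ± 0.27 (5.73-fold, adjusted p = 5.35e-04) and 2.63 ± 0.26 (6.18-fold, adjusted p = 3.49e-04). Without the library high in leukocyte markers the second was 2.32 ± 0.16 (adjusted p = 3.64e-04).

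CXCL16, the transmembrane ligand of CXCR6, had the highest group mean of the members in all 5 groups, and smaller folds than CXCL9 and CXCL10. It was at 46.8, 55.8 and 54.4 scaled FPKM with sh-NC, 231, 152 and 148 with sh-B7-H3 (1), and 237, 166 and 172 with sh-B7-H3 (2). Against sh-NC these levels gave log2 differences of 1.71 ± 0.20 (3.27-fold, adjusted p = 7.89e-04) and 1.84 ± 0.17 (3.57-fold, adjusted p = 3.01e-04), and 1.68 ± 0.16 (adjusted p = 0.00103) without the library high in leukocyte markers. Both groups labelled sh-B7-H3 overlapped each other and stood above all control libraries.

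CX3CL1, the membrane-bound ligand of CX3CR1 on monocytes, NK cells and cytotoxic T cells, had the smallest spread relative to its mean among libraries of either shRNA, with an SD of 6.99% and 8.23% of the mean. Sorted cells held 12.3, 8.73 and 8.87 scaled FPKM with sh-NC, 31.7, 27.7 and 29.1 with sh-B7-H3 (1), and 32.3, 27.9 and 28.2 with sh-B7-H3 (2). The group means were 29.5 ± 2.06 and 29.5 ± 2.43 with the shRNAs (SD, n = 3), against 9.96 ± 2.01 with sh-NC. On the log2 scale the difference was 1.49 ± 0.16 in both comparisons (2.81-fold and 2.80-fold, adjusted p = 4.78e-04 and 5.19e-04), and 1.42 ± 0.18 (adjusted p = 0.00345) for the second without the library high in leukocyte markers.

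**Figure D2:**
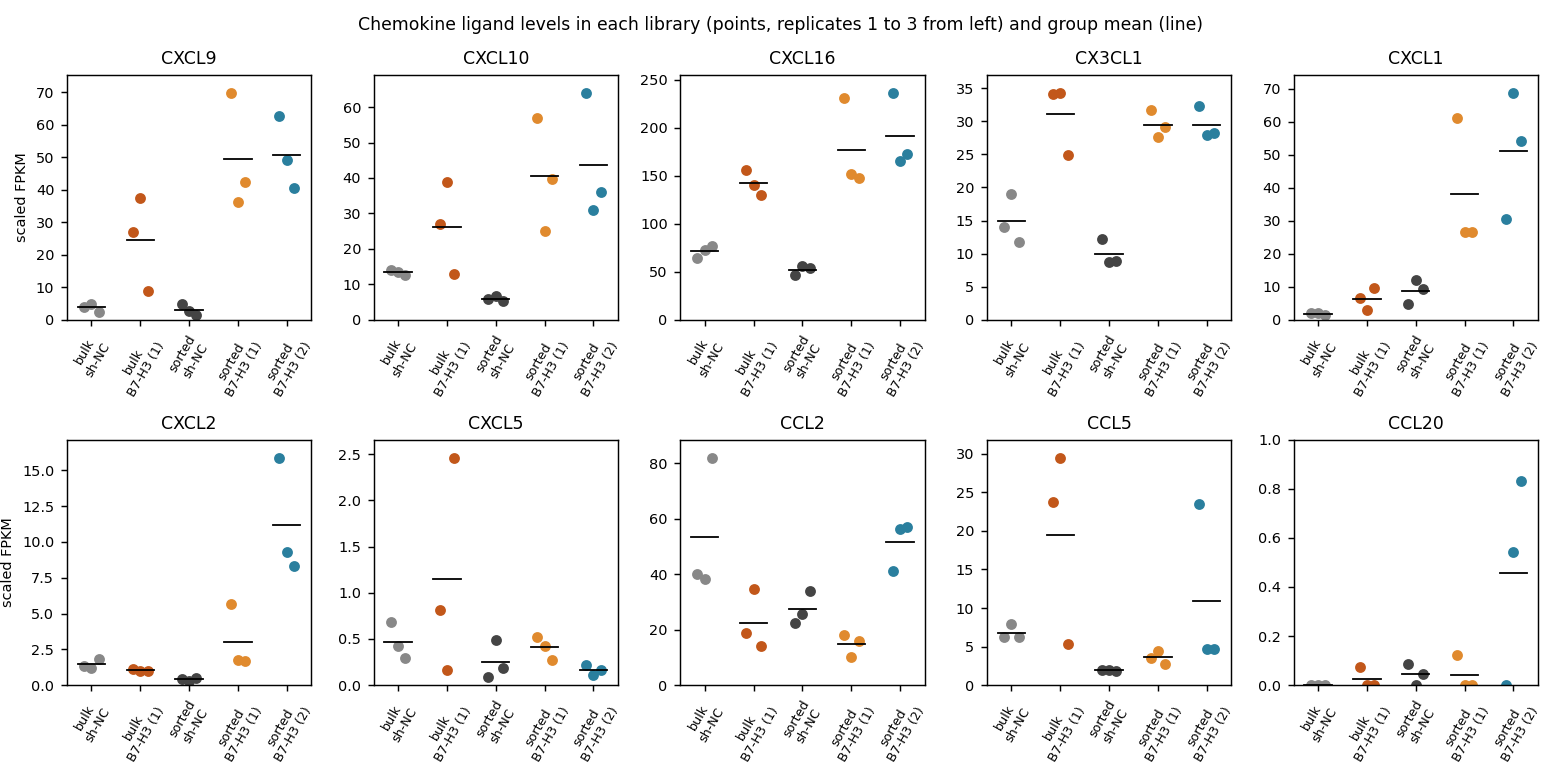
Scaled FPKM of the 10 chemokine ligands in the 15 libraries (points, 3 a group) with the group mean (line), each gene on a linear axis of its own that starts at 0. CXCL9, CXCL10, CXCL16 and CX3CL1 are higher in all 6 sorted sh-B7-H3 libraries than in the 3 sorted sh-NC libraries, while CCL2 is highest with sh-B7-H3 (2) among the sorted groups and CXCL5 and CCL20 are below 1 in all but 1 library.

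Of the ligands of the neutrophil receptor CXCR2, CXCL1 and CXCL2 rose and CXCL5 stayed below the filter. CXCL1 was at 4.92, 12.1 and 9.29 scaled FPKM with sh-NC, 61.1, 26.5 and 26.6 with sh-B7-H3 (1), and 30.6, 68.9 and 54.3 with sh-B7-H3 (2). Its groups did not overlap, but its replicates spread more than those of CX3CL1, and the highest library was replicate 1 with the first shRNA and replicate 2 with the second. The log2 difference was 1.96 ± 0.38 (3.89-fold, adjusted p = 0.0116) and 2.42 ± 0.36 (5.35-fold, adjusted p = 0.00286), and 2.74 ± 0.33 (adjusted p = 0.00269) without the library high in leukocyte markers. The call with sh-B7-H3 (1) was lost with the replicate number as a block (adjusted p = 0.0766).

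CXCL2, next to CXCL1 on the chromosome, was at 0.402, 0.309 and 0.469 scaled FPKM with sh-NC, 5.63, 1.72 and 1.69 with sh-B7-H3 (1), and 15.9, 9.30 and 8.34 with sh-B7-H3 (2). The 3 groups were ordered without overlap. The differences from sh-NC were, on the log2 scale, 1.39 ± 0.32 (2.62-fold, adjusted p = 0.0255) with the first shRNA and 3.08 ± 0.22 (8.44-fold, adjusted p = 1.05e-04) with the second. Because control levels were below the pseudocount of 1, these folds understate the ratio of the levels. The call with the first shRNA was lost with no filter, as given above, and without sh-NC replicate 2 (1.35, adjusted p = 0.0848). It was also lost with the replicate number as a block (adjusted p = 0.0514). Without any 1 library of its shRNA group, CXCL2 did not pass the filter in either comparison, as only 2 libraries held 1 or more. This included the fit without the library high in leukocyte markers.

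CXCL5 held 0.0869, 0.489 and 0.189 scaled FPKM with sh-NC, 0.524, 0.428 and 0.271 with sh-B7-H3 (1), and 0.223, 0.111 and 0.159 with sh-B7-H3 (2). These groups overlapped. Tested without the filter, its log2 difference was 0.17 ± 0.13 (adjusted p = 0.537) with the first shRNA and -0.10 ± 0.12 (adjusted p = 0.657) with the second.

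The CC ligands divided. CCL2, the monocyte chemoattractant, was at 22.4, 25.7 and 34.1 scaled FPKM with sh-NC, 18.2, 9.99 and 16.1 with sh-B7-H3 (1), and 41.2, 56.4 and 57.0 with sh-B7-H3 (2). It was thus below all control libraries with the first shRNA and above all of them with the second. The log2 difference was -0.87 ± 0.24 with sh-B7-H3 (1) (adjusted p = 0.0502) and 0.89 ± 0.20 with sh-B7-H3 (2) (1.86-fold, adjusted p = 0.0169). The first passed the threshold without sh-NC replicate 1 (-1.0, adjusted p = 0.0286). The second did not pass without sh-NC replicate 2 (0.86, adjusted p = 0.0736) or without replicate 2 (0.82, adjusted p = 0.0759) or 3 (0.81, adjusted p = 0.085) of its own group, and was 1.04 ± 0.20 (adjusted p = 0.0176) without the library high in leukocyte markers.

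CCL5, which T cells and NK cells also secrete, was at 1.94, 1.93 and 1.86 scaled FPKM with sh-NC, 3.57, 4.44 and 2.80 with sh-B7-H3 (1), and 23.5, 4.72 and 4.66 with sh-B7-H3 (2). The value of 23.5 belonged to the library high in leukocyte markers, which also held 20.4 for a sum of 7 cytotoxic lymphocyte markers listed at 0 in all sorted sh-NC libraries. For CCL5 the log2 difference was 0.65 ± 0.15 with sh-B7-H3 (1) (1.57-fold, adjusted p = 0.0255) and 1.67 ± 0.52 with sh-B7-H3 (2) (adjusted p = 0.0619). Without that library the second was 0.97 ± 0.12 (adjusted p = 0.00381), past the threshold. The first lost its call without sh-NC replicate 2 (0.65, adjusted p = 0.0878) or 3 (0.63, adjusted p = 0.052), or without replicate 1 (0.64, adjusted p = 0.103) or 2 (0.52, adjusted p = 0.107) of the sh-B7-H3 (1) group. That call was also lost with the replicate number as a block (adjusted p = 0.0791) and with all groups in 1 fit (adjusted p = 0.485). T-cell marker sums moved with CCL5 in these libraries, and their part in its difference was not tested.

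CCL20, the ligand of CCR6, was close to 0 throughout. It was listed at 0.0849, 0 and 0.0461 scaled FPKM with sh-NC, 0.122, 0 and 0 with sh-B7-H3 (1), and 0, 0.544 and 0.832 with sh-B7-H3 (2). The smallest whole numbers of reads that fit its values, to within 0.05 of a read, were 8 and 15 in the last 2 of these libraries and 0 to 2 in the other 7. Tested without the filter, its difference with sh-B7-H3 (2) was 0.44 ± 0.22 (adjusted p = 0.291).

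**Figure D3:**
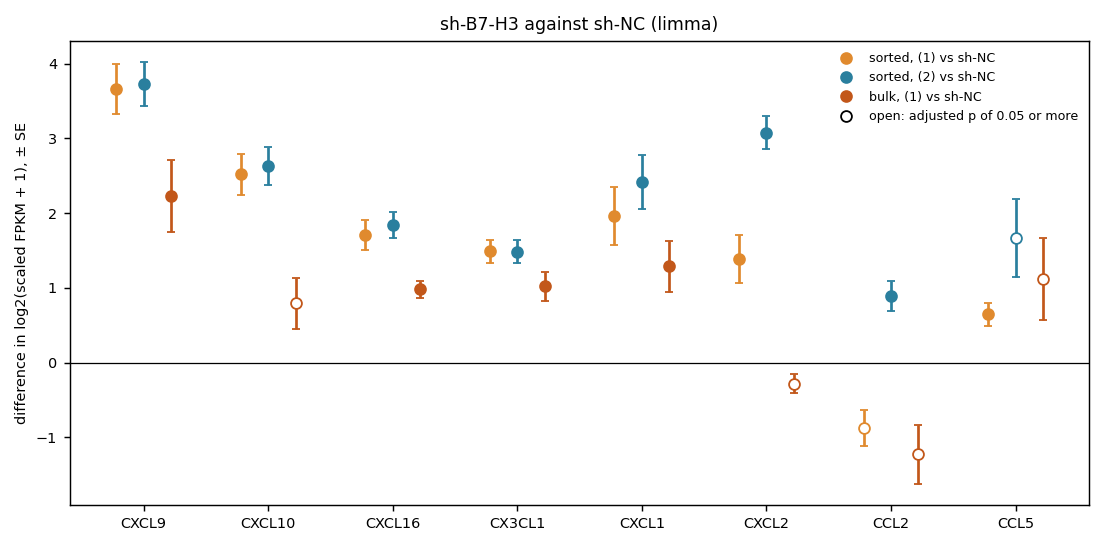
Difference in log2(scaled FPKM + 1) between libraries labelled sh-B7-H3 and sh-NC for the 8 members tested, with the SE from limma, in sorted cells with each shRNA and in bulk tumors with sh-B7-H3 (1). Filled points had an adjusted p below 0.05. CXCL9 has the largest differences at this pseudocount, and CCL2 is below 0 with sh-B7-H3 (1) and above 0 with sh-B7-H3 (2).

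The 2 shRNAs were compared directly, since an effect past the threshold with one and not the other is no test of a difference. Of the 8 members, 1 differed, CCL2, which was lower with sh-B7-H3 (1) than with sh-B7-H3 (2) by -1.76 ± 0.22 (adjusted p = 0.00942). Over all genes, 1.64% were lower in this comparison. Same-numbered libraries of these 2 groups deviated together, and with the replicate number as a block CCL2 was again past the threshold (adjusted p = 0.0196) and CXCL2 joined it (-1.69 ± 0.13, adjusted p = 0.00941, against -1.69 ± 0.37 and adjusted p = 0.0555 without the block). The block therefore gave 2 members in place of 1, while calls over all 11239 genes tested went from 382 to 1864. Leaving out sh-B7-H3 (1) replicate 3 or sh-B7-H3 (2) replicate 3 took CCL2 to adjusted p = 0.0509 and 0.0534, with differences of -1.84 and -1.68, and testing with no filter took it to 0.057. Without the library high in leukocyte markers, the difference was -1.91 ± 0.22 (adjusted p = 0.00273) for CCL2 and -1.43 ± 0.35 (adjusted p = 0.0478) for CXCL2. CXCL2 also passed without sh-B7-H3 (1) replicate 1 (-2.12, adjusted p = 0.0153).

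The remaining members did not pass the threshold between the shRNAs. The difference was smaller than its SE for 4 of them, -0.07 ± 0.25 for CXCL9, -0.11 ± 0.34 for CXCL10, -0.13 ± 0.21 for CXCL16 and 0.00 ± 0.10 for CX3CL1. It was larger than its SE for the other 2. CXCL1 gave -0.46 ± 0.38 and CCL5 -1.02 ± 0.52, with adjusted p = 0.524 and 0.300, and CCL5 gave -0.32 ± 0.15 (adjusted p = 0.219) without the library high in leukocyte markers. The SE was smallest for CX3CL1. CD276 itself was lower with sh-B7-H3 (1) than with sh-B7-H3 (2) by -1.16 ± 0.20 (adjusted p = 0.0277).

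Bulk tumors asked the same question of whole tissue, where fewer cells of a type and less RNA per cell cannot be told apart. With sh-B7-H3 (1) against sh-NC, 4 of the 8 members tested rose (CXCL9, CXCL16, CX3CL1 and CXCL1), where 12.8% of all genes tested rose, and by limma 0 fell, where 8.52% fell. At an unadjusted p below 0.05, 1 of the 8 was lower, CCL2. The median log2 difference of the 8 was 1.00, against 0.02 over all genes. T-cell marker sums were 2.27 to 2.72 with sh-NC and 6.23 to 19.5 with sh-B7-H3 (1), and fibroblast sums 81.1 to 156 and 265 to 635. The part of these cells in the ligand values was not tested.

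CXCL9 was at 3.99, 4.88 and 2.54 scaled FPKM in bulk tumors with sh-NC and at 27.1, 37.6 and 8.91 with sh-B7-H3 (1), a difference of 2.23 ± 0.48 on the log2 scale (4.70-fold, adjusted p = 0.0223). The groups did not overlap. Replicate 3 was well below the other libraries of its group, and the difference without it was 2.81 ± 0.24 (adjusted p = 0.0038). The call was lost without any 1 of the sh-NC libraries or without sh-B7-H3 (1) replicate 1, with differences of 2.03 to 2.39 and adjusted p of 0.055 to 0.0962, and with no filter (adjusted p = 0.0523).

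CXCL10 was at 14.1, 13.5 and 12.6 with sh-NC and 26.9, 38.9 and 13.0 with sh-B7-H3 (1), where replicate 3 lay within the range of the controls. Its difference was 0.79 ± 0.35 (adjusted p = 0.134), and 1.21 ± 0.16 (adjusted p = 0.00771) without replicate 3. That replicate had the lowest leukocyte sum (189, against 309 and 394) and the lowest T-cell sum (6.23, against 19.5 and 18.5) of its group.

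CXCL16 was at 64.8, 72.7 and 77.3 scaled FPKM with sh-NC and 156, 141 and 130.4 with sh-B7-H3 (1), with no overlap, a difference of 0.98 ± 0.11 (1.98-fold, adjusted p = 0.00345). CX3CL1 was at 14.0, 19.0 and 11.7 with sh-NC and 34.2, 34.3 and 24.9 with sh-B7-H3 (1), again with no overlap, a difference of 1.02 ± 0.20 (2.03-fold, adjusted p = 0.0159). For these transmembrane ligands replicate 3 did not fall back to control levels. The call of CXCL16 held in every fit that left out 1 library. That of CX3CL1 was lost without sh-NC replicate 1 (0.99, adjusted p = 0.0515) or 3 (0.87, adjusted p = 0.06), or without sh-B7-H3 (1) replicate 1 (0.95, adjusted p = 0.0774).

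CXCL1 was at 1.91, 2.18 and 1.38 scaled FPKM with sh-NC and 6.69, 2.95 and 9.61 with sh-B7-H3 (1), a difference of 1.29 ± 0.34 (2.44-fold, adjusted p = 0.0392). Here replicate 3, lowest in CXCL9 and CXCL10, was the highest library. The call was lost without any 1 of 5 libraries, every one except sh-B7-H3 (1) replicate 2, with differences of 0.97 to 1.38 and adjusted p of 0.0674 to 0.139, and with no filter (adjusted p = 0.0805). CXCL2 was at 1.35, 1.23 and 1.84 with sh-NC and 1.14, 0.982 and 0.953 with sh-B7-H3 (1), a difference of -0.28 ± 0.13 (adjusted p = 0.154). Neutrophil marker sums were 5.47 to 11.2 with sh-NC and 2.10 to 3.66 with sh-B7-H3 (1), and their part in the CXCL2 values was not tested. CXCL5 was at 0.684, 0.419 and 0.290 with sh-NC and 0.811, 0.162 and 2.46 with sh-B7-H3 (1), and was below the filter, with replicate 3 as its 1 library above 1 scaled FPKM.

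CCL2 was at 40.1, 38.4 and 81.9 scaled FPKM in bulk tumors with sh-NC and 18.7, 34.5 and 13.9 with sh-B7-H3 (1). All 3 sh-B7-H3 (1) tumors were below all controls, though 34.5 and 38.4 were close. The difference was -1.23 ± 0.39 (adjusted p = 0.0641), and -1.58 (adjusted p = 0.0146) without sh-B7-H3 (1) replicate 2. CCL5 was at 6.22, 7.88 and 6.19 with sh-NC and 23.8, 29.5 and 5.33 with sh-B7-H3 (1), so that replicates 1 and 2 were above and replicate 3 below every control. Its difference was 1.12 ± 0.55 (adjusted p = 0.172), and 1.83 ± 0.15 (adjusted p = 0.00353) without replicate 3. CCL20 was listed at 0 in 5 of the 6 bulk libraries and at 0.0734 in sh-B7-H3 (1) replicate 1.

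Whether the effect of sh-B7-H3 (1) differed between sorted cells and bulk tumors was tested as an interaction. By limma 0 of the 8 members had an adjusted p below 0.05, where 0.464% of all genes tested did, and 4 of the 8 had an unadjusted p below 0.05 (CXCL9, CXCL10, CXCL16 and CXCL2). For CXCL10 the effect in sorted cells was larger by 1.72 ± 0.48 (adjusted p = 0.179) and for CXCL2 by 1.67 ± 0.39 (adjusted p = 0.102). CXCL9 gave 1.43 ± 0.65 (adjusted p = 0.339) and CXCL16 0.73 ± 0.24 (adjusted p = 0.239). The errors of the other 4 were as large as or larger than those of CXCL16, with CX3CL1 at 0.47 ± 0.26 and CCL5 at -0.48 ± 0.62. With 1 library left out the count reached 1, CXCL2 (1.24, adjusted p = 0.0338) without sorted sh-B7-H3 (1) replicate 1 and CCL5 (-1.18, adjusted p = 0.048) without bulk sh-B7-H3 (1) replicate 3. Thus a difference between materials was not established for any member, and equal effects were not shown either.

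Bulk tumors were also set beside sorted cells with the same shRNA. Sorted cells were dissociated and depleted before RNA was taken, so handling and cell content cannot be told apart here. With sh-NC, CXCL10, CXCL2 and CCL5 were higher in bulk tumors and CXCL1 was lower, 3 and 1 of 8 tested, where 10.4% and 6.48% of all genes were. The difference, bulk minus sorted, was 1.06 ± 0.13 for CXCL10 (adjusted p = 0.00108), 0.82 ± 0.13 for CXCL2 (adjusted p = 0.00472), 1.41 ± 0.13 for CCL5 (adjusted p = 2.05e-04) and -1.73 ± 0.28 for CXCL1 (adjusted p = 0.00587). CXCL2 passed the filter here only through the bulk tumors, where it was higher. CXCL1 lost its call without any 1 of the bulk libraries, with differences of -1.82 to -1.61 and adjusted p of 0.0551 to 0.0614. CXCL9 gave 0.29 ± 0.30 (adjusted p = 0.543), CXCL16 0.44 ± 0.14 (adjusted p = 0.0609) and CX3CL1 0.53 ± 0.20 (adjusted p = 0.112). The last 2 passed without sorted sh-NC replicate 1, with 0.37 (adjusted p = 0.0417) and 0.67 (adjusted p = 0.0285).

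With sh-B7-H3 (1), CCL5 was higher in bulk tumors by 1.89 ± 0.53 (adjusted p = 0.0278) and CXCL1 lower by -2.40 ± 0.42 (adjusted p = 0.00601), 1 and 1 of 8 tested, where 21.1% and 17.1% of all genes were. CCL5 lost its call without bulk replicate 1 (1.61, adjusted p = 0.0868) or without sorted replicate 1 (1.89, adjusted p = 0.0962) or 3 (1.76, adjusted p = 0.0712), and with no filter (adjusted p = 0.0709). CXCL9 was at 8.91 to 37.6 in bulk tumors and 36.4 to 69.9 in sorted cells (-1.14 ± 0.48, adjusted p = 0.0938), and passed without bulk replicate 2 (-1.54, adjusted p = 0.0245). CXCL10 gave -0.66 ± 0.41 and CXCL16 -0.28 ± 0.19, with adjusted p = 0.229 and 0.251. The sorted sh-B7-H3 (1) cells held 6.71 to 9.01 scaled FPKM of leukocyte markers and 145 to 167 of macrophage and monocyte markers. Their ranges of CXCL9, CXCL10 and CXCL16 overlapped those of the whole tumors with the same shRNA, for CXCL9 only between 36.4 and 37.6. Which cells held the RNA of these ligands was not tested.

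The receptors of the members were near 0 in sorted cells, apart from the library high in leukocyte markers. CXCR3, CXCR6, CXCR2 and CCR6 did not pass the filter in any comparison. CXCR3 was listed at 0 in 7 of the 9 sorted libraries, with 0.432 and 0.0234 in replicates 1 and 3 of sh-B7-H3 (2). In bulk tumors it was at 0.126, 0.202 and 0.0333 with sh-NC and 1.09, 1.26 and 0.238 with sh-B7-H3 (1), so all 3 of the latter were above all 3 of the former, with replicate 3 the lowest as for its ligands. CXCR6 followed the same order, with 0.189, 0.360 and 0.332 in bulk sh-NC, 2.58, 2.11 and 0.594 in bulk sh-B7-H3 (1), and 3.47 in replicate 1 of sorted sh-B7-H3 (2) against at most 0.0643 in the other sorted libraries. CXCR2, the neutrophil receptor, reached at most 0.123 in any library and CCR6 at most 0.313.

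CX3CR1 and CCR2, receptors of monocytes and macrophages, were higher in bulk tumors than in sorted cells. With sh-NC the log2 differences were 3.73 ± 0.17 and 2.45 ± 0.19 (adjusted p = 5.97e-06 and 8.36e-05), and CCR1 was higher with them, 3 of 4 receptors tested. With sh-B7-H3 (1) the same 3 were higher. Of all genes tested, 10.4% were higher with sh-NC and 21.1% with sh-B7-H3 (1). In both comparisons these 3 receptors were below 1 scaled FPKM in every sorted library and passed the filter only through the bulk tumors. The receptor counts are therefore partly set by the filter. Between bulk tumors 1 of 4 differed, CXCR4, the receptor of CXCL12, which was lower with sh-B7-H3 (1) by -1.35 ± 0.39 (adjusted p = 0.0495). There, 8.52% of all genes tested fell. In sorted cells CXCR4 was the only receptor tested, with -0.94 ± 0.28 (adjusted p = 0.0624) and -0.64 ± 0.56 (adjusted p = 0.493) for the shRNAs. Without the library high in leukocyte markers, CXCR4 was lower with the second by -1.33 ± 0.30 (adjusted p = 0.0343).

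**Figure D4:**
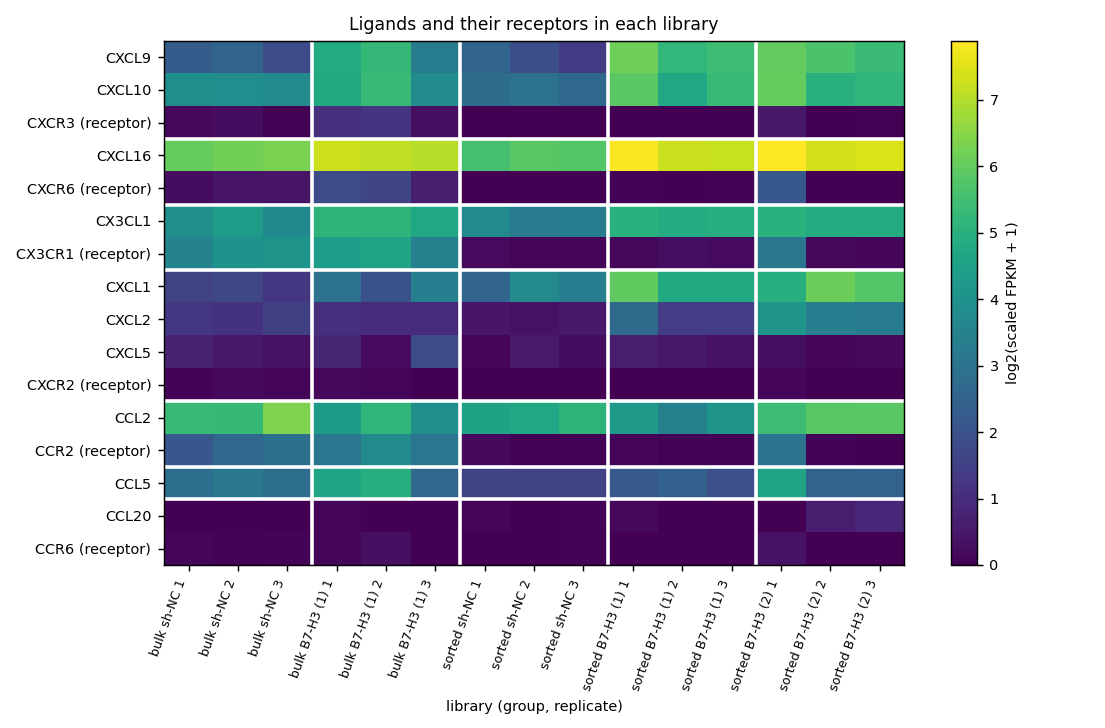
Level as log2(scaled FPKM + 1) (colour) of the ligands above their receptor (rows, separated by white lines; CCL5 is shown alone) in the 15 libraries (columns, by group). Receptor rows are dark in sorted libraries except in replicate 1 of sh-B7-H3 (2), whereas CXCL9, CXCL10, CXCL16, CX3CL1 and CXCL1 are bright in all 6 sorted sh-B7-H3 libraries.

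In the sorted comparisons, 9.03% of all genes tested rose with sh-B7-H3 (1) and 11.7% with sh-B7-H3 (2). Of 28 other chemokine ligands, 10 were tested there. With sh-B7-H3 (1) 1 rose, CXCL11, a further CXCR3 ligand (1.23 ± 0.29, adjusted p = 0.0253). With sh-B7-H3 (2) 3 rose, CXCL11 (1.98 ± 0.21, adjusted p = 5.03e-04), CCL8 (2.31 ± 0.62, adjusted p = 0.0376) and the eosinophil chemoattractant CCL11 (1.02 ± 0.26, adjusted p = 0.032). By limma 0 fell in either comparison, with 0 and 2 lower at an unadjusted p below 0.05. Of all genes tested, 489 of 11163 fell with sh-B7-H3 (1) and 837 of 11243 with sh-B7-H3 (2). CXCL11 was at 0.0731, 0.182 and 0.338 scaled FPKM with sh-NC, 3.64, 1.09 and 1.26 with the first shRNA and 5.44, 2.89 and 3.14 with the second, and so passed the filter only through the shRNA groups. CCL8 was at 57.2 in the library high in leukocyte markers and at 9.40 and 12.2 in the others of its group. Without that library CCL8 rose by 1.54 ± 0.33 (adjusted p = 0.028), CCL11 gave 1.01 ± 0.31 (adjusted p = 0.0897), CXCL11 no longer passed the filter, and CCL17 was lower by -0.90 ± 0.21 (adjusted p = 0.0366), having passed the filter only through sh-NC. Between the shRNAs 0 of the 10 differed by limma, with 2 at an unadjusted p below 0.05. Few genes differed there at all, 198 higher and 184 lower of 11239 tested, so this 0 does not show that the shRNAs agreed.

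In bulk tumors 16 of the other ligands were tested, where 12.8% of all genes rose and 8.52% fell. CXCL14 (0.82 ± 0.14, adjusted p = 0.0122) and CCL22 (0.79 ± 0.19, adjusted p = 0.0289), a ligand of CCR4, rose with sh-B7-H3 (1), and PF4 fell (-2.41 ± 0.34, adjusted p = 0.00631). CCL22 was at most 0.756 scaled FPKM with sh-NC and passed the filter only through the tumors where it was higher. PF4 was at 42.5, 33.0 and 67.7 with sh-NC and at 5.49, 12.7 and 6.58 with sh-B7-H3 (1). Against sorted cells with sh-NC, 10 of 15 tested were higher in bulk tumors by limma and 0 lower (1 at an unadjusted p below 0.05), led by PF4 (4.81 ± 0.26), CCL12 (4.77 ± 0.18), CCL6 (4.39 ± 0.25), CCL9 (3.22 ± 0.20), CCL7 (3.11 ± 0.25) and CCL8 (2.43 ± 0.33), each past the threshold. Over all genes tested, 10.4% were higher and 6.48% lower in this comparison. Of the 10 ligands, 6 were below 1 scaled FPKM in every sorted sh-NC library, PF4, CCL6 and CCL9 among them. These 6 entered the test only through the bulk tumors, so the count of 10 is partly set by the filter.

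Decoy receptors and shedding enzymes moved in part. CCRL2, an atypical receptor that presents chemerin, rose by 2.40 ± 0.23 with sh-B7-H3 (1) (adjusted p = 3.40e-04) and 2.97 ± 0.38 with sh-B7-H3 (2) (adjusted p = 0.0013) in sorted cells, and by 1.13 ± 0.16 in bulk tumors (adjusted p = 0.0059). It was below 1 in all sorted sh-NC libraries (0.592, 0.869 and 0.773) and passed the filter through the others. ADAM17, a sheddase of CX3CL1, rose by 0.50 ± 0.13 (adjusted p = 0.0376) with sh-B7-H3 (2) and by 0.46 ± 0.08 (adjusted p = 0.01) in bulk tumors. ACKR3, a scavenger of CXCL12 and CXCL11, rose by 0.74 ± 0.15 (adjusted p = 0.0115) and 0.45 ± 0.13 (adjusted p = 0.0488) in the same comparisons. In all, 1 of 4 tested rose with sh-B7-H3 (1), 3 of 4 with sh-B7-H3 (2) and 3 of 4 in bulk tumors. Over all genes tested, the shares were 9.03%, 11.7% and 12.8%. Without the library high in leukocyte markers, 1 of 3 tested rose with sh-B7-H3 (2), and 804 of all 10901 genes did. ACKR3 gave 0.70 ± 0.18 (adjusted p = 0.0469) and ADAM17 0.49 ± 0.16 (adjusted p = 0.11), and CCRL2, at 26.2 in that library and 8.87 and 8.52 in the others of its group, no longer passed the filter.

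Of 12 inducing cytokines and regulators, 8 were tested in sorted cells, of which 4 rose with sh-B7-H3 (1) and 5 with sh-B7-H3 (2). Of all genes tested, 9.03% and 11.7% rose in these comparisons. By limma 0 of the 8 fell, and 0 were lower at an unadjusted p below 0.05. Over all genes tested, 489 of 11163 fell in the first comparison and 837 of 11243 in the second. IRF1, a transcription factor induced by interferon-gamma, rose by 2.83 ± 0.25 (adjusted p = 2.15e-04) and 2.91 ± 0.19 (adjusted p = 6.97e-05). The NF-kappaB inhibitor gene NFKBIA rose by 1.06 ± 0.20 (adjusted p = 0.0101) and 1.75 ± 0.13 (adjusted p = 1.01e-04), and NFKBIZ, its nuclear relative, by 1.06 ± 0.16 (adjusted p = 0.0027) and 1.67 ± 0.15 (adjusted p = 2.29e-04). TNFAIP3, which encodes the NF-kappaB brake A20, rose with sh-B7-H3 (2) by 1.95 ± 0.18 (adjusted p = 2.48e-04) and was lower with sh-B7-H3 (1) than with sh-B7-H3 (2) by -1.25 ± 0.15 (adjusted p = 0.00821). ZFP36, whose protein destabilizes cytokine mRNAs, rose with sh-B7-H3 (2) by 1.20 ± 0.21 (adjusted p = 0.00571), and IL1A rose with sh-B7-H3 (1) by 1.60 ± 0.27 (adjusted p = 0.00594). IL1A was at most 0.377 scaled FPKM in sorted sh-NC cells and passed the filter only through the cells with the shRNA. Without the library high in leukocyte markers the same 5 genes rose with sh-B7-H3 (2), of 7 tested, IRF1 by 2.72 ± 0.16 (adjusted p = 3.59e-04), NFKBIA by 1.79 ± 0.15 (adjusted p = 6.76e-04), NFKBIZ by 1.77 ± 0.16 (adjusted p = 8.88e-04), TNFAIP3 by 2.02 ± 0.20 (adjusted p = 0.00126) and ZFP36 by 1.19 ± 0.25 (adjusted p = 0.0252). Between the shRNAs TNFAIP3 then gave -1.32 ± 0.16 (adjusted p = 0.00323), and NFKBIZ, at -0.71 ± 0.13 (adjusted p = 0.0181), joined it. In bulk tumors 2 of 9 rose, IRF1 by 1.38 ± 0.29 (adjusted p = 0.0193) and NFKBIA by 0.39 ± 0.09 (adjusted p = 0.0227), where 12.8% of all genes tested rose.

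IFNG, which encodes interferon-gamma itself, did not pass the filter. It was listed at 0 in 8 of the 9 sorted libraries and at 0.724 in replicate 1 of sh-B7-H3 (2). In bulk tumors it was at 0, 0.0404 and 0 with sh-NC and 0.174, 0.078 and 0 with sh-B7-H3 (1), the last 0 being replicate 3. These levels came from few reads, at the fewest 0 to 4 in the bulk libraries and 18 in the sorted one.

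The genes whose pattern over the 15 libraries was most like each member's were sought among 12194 genes by Pearson's r of log2(scaled FPKM + 1). The libraries form 5 groups and share their host-cell content, so r describes the pattern and carries no test. For CXCL9 they were H2-Q9 (r = 0.988), CIITA (r = 0.983) and GBP7 (r = 0.979), and for CXCL10 RNF114 (r = 0.984), AW112010 (r = 0.976) and UBA7 (r = 0.974). For CXCL16 they were HCAR2 (r = 0.982), TMEM79 (r = 0.978) and H2-DMB1 (r = 0.977), and for CX3CL1 SH3TC2 (r = 0.973), CNKSR1 (r = 0.969) and NECTIN4 (r = 0.969). CXCL1 was most like DDX47 (r = 0.976), METAP1 (r = 0.967) and NFKBIZ (r = 0.963). CXCL2 was most like HSPA1B (r = 0.925), CXCL11 (r = 0.923) and NOS2 (r = 0.917), and CCL2 had the lowest values, with PSRC1 (r = 0.903), GDE1 (r = 0.882) and RND1 (r = 0.873). CCL5 was most like JAML (r = 0.968), LAT (r = 0.960) and LTB (r = 0.955), which are genes of lymphocytes and other leukocytes. Without the library high in leukocyte markers these 3 were 0.960, 0.949 and 0.944. The gene most like the member stayed the same without that library for CXCL9, CXCL10, CXCL16, CX3CL1, CXCL1 and CCL5, and changed for 2 members. For CXCL2 HSPA1B fell to 0.886 and CXCL11 to 0.888, and NOS2 led at 0.952. For CCL2 1810043G02RIK led at 0.920, against 0.749 with all libraries.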

How the data were processed

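RNA sequencing of 15 libraries (3 in each of 5 groups, from the labels) was read with 75 single-end cycles per the study's methods. The authors deposited FPKM values, scaled for gene length and library size, for 24917 entries. Per the labels the build was mm10, the aligner and annotation are not given in the sources used here, and the kit is named differently by the labels and the study's methods. A second table with 1000 genes on a log scale was not used. Of the entries, 26 with symbols turned into dates were left out. A median-ratio factor for each library, from the 9872 genes that reached 1 FPKM throughout, was divided out, since MIR6236 held 6.01% to 79.7% of summed FPKM. Its share was highest in bulk sh-NC replicate 3 (79.7%), bulk sh-B7-H3 (1) replicate 2 (74.4%) and sorted sh-NC replicate 2 (51.6%). Whether it bore on the scaled values of these libraries was not tested. Differences were tested on log2(scaled FPKM + 1) with limma 3.58.1 (R 4.3.3, mean-variance trend), for genes with at least 1 scaled FPKM in 3 libraries of the comparison, over only the groups compared, with Benjamini-Hochberg adjustment over all genes tested and calls at an adjusted p below 0.05. A fold is on this scale and understates the change of low genes. Errors of differences are SE. The procedure was tested on simulated data modelled on the sorted sh-B7-H3 (1) and sh-NC libraries. Changes were planted only in genes above a set control level, so changes in low genes were not covered.

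The members, lists and motifs were chosen with earlier results of these data known. Named beside the 10 members were genes of the other lists past the threshold (at most 6 a list and comparison), the members' receptors, CD276, and the 3 genes of the highest Pearson's r with each member. Some genes of the lists are not reported here. IFNG and the values in libraries of PF4, CCL8, CXCL11 and CCRL2 were added after their values were seen.

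Same-numbered sorted libraries of both B7-H3 shRNAs had deviations that correlated by 0.431, 0.443 and 0.514 over 10041 genes. Libraries of different numbers also correlated, by up to 0.637 between sorted sh-NC replicate 3 and sorted sh-B7-H3 (1) replicate 1. A pairing by number was thus not established, and the fit with a replicate block is given beside that comparison as an alternative. Relative depth was read from the spacing of low FPKM values, and whole reads behind low values were taken as the smallest set that fits, so a common factor is not known. Alternatives were the unscaled FPKM, no filter, a filter on every library, pseudocounts of 0.1 and 0.25, all groups in 1 fit, the replicate block, and each library left out. Leaving the leukocyte-high library out of the gene lists beside the members was added after the data were seen.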

Additional observations from a re-analysis of the deposited data

Results flagged for a closer look

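CCL2 was flagged because its response differed between the 2 shRNAs by a direct test. In sorted cells it was lower with sh-B7-H3 (1) than with sh-B7-H3 (2) by -1.76 on the log2(scaled FPKM + 1) scale (limma, adjusted p = 0.00942), with 3 of 3 libraries of the first below 3 of 3 of the second, and with sh-NC between them. CD276 RNA, the target of both shRNAs, was lower in the first group than in the second by -1.16 (adjusted p = 0.0277). The cause of the difference in CCL2 was not tested.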

How the results depend on the processing

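Of 761 alternative values for 56 member results, 672 kept direction and side of the threshold, 43 lost the call, 33 gained it and 13 changed sign. Sign changes were near 0. Between the shRNAs, CX3CL1 was -0.032 with FPKM as deposited. In the same comparison, leaving out 1 library gave -0.050 to 0.067 for CX3CL1, -0.34 to 0.12 for CXCL9, -0.39 to 0.20 for CXCL10 and -0.33 to 0.034 for CXCL16. CX3CL1 in bulk against sorted sh-B7-H3 (1) was -0.23 with FPKM as deposited and -0.013 to 0.21 with 1 library left out.

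Without scaling factors, the all-gene median became 0.17, 0.21, -0.23 and 0.12 for sh-B7-H3 (1), for sh-B7-H3 (2), for bulk against sorted sh-B7-H3 (1) and for the interaction. Calls then split into 1186 higher and 223 lower with sh-B7-H3 (1) (1008 and 489 with scaling), 1608 and 325 with sh-B7-H3 (2) (1313 and 837), 675 and 286 in bulk tumors (1515 and 1005), 520 and 132 between bulk and sorted sh-NC (1184 and 740), 898 and 3035 for sh-B7-H3 (1) (2464 and 2000), and 162 and 194 between the shRNAs (198 and 184). Genes called by either direction became 961 in bulk tumors, 652 for bulk against sorted sh-NC and 128 for the interaction, and members called became 5 for bulk against sorted sh-B7-H3 (1) and 2 for the interaction. CXCL10 in bulk against sorted sh-NC lost its call (0.93, adjusted p = 0.118).

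Without the filter, members called were 0 between the shRNAs, with 137 genes, 2 in bulk tumors and 1 for bulk against sorted sh-B7-H3 (1). With the filter on every library they were 2 between the shRNAs, and genes called were 1279 for bulk against sorted sh-NC and 13 for the interaction. All groups in 1 fit gave 2 members between the shRNAs, 3082 genes for bulk against sorted sh-NC and 36 for the interaction, and pseudocounts of 0.1 and 0.25 gave 25 and 35 for the interaction.

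The replicate block gave 4 members and 915 genes with sh-B7-H3 (1), 1395 genes with sh-B7-H3 (2), 2 members and 1864 genes between the shRNAs, 1413 genes in bulk tumors, 4 members for bulk against sorted sh-B7-H3 (1), and 24 genes for the interaction. In the other pairs of groups, same-number correlations ran from -0.662 to 0.361.

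Leaving out 1 library gave 5 to 8 members and 722 to 1948 genes with sh-B7-H3 (1), 5 to 7 and 962 to 3614 with sh-B7-H3 (2), 0 to 2 and 35 to 890 between the shRNAs, 1 to 5 and 546 to 3793 in bulk tumors, 2 to 6 and 139 to 4436 for bulk against sorted sh-NC, 1 to 3 and 1674 to 3814 for bulk against sorted sh-B7-H3 (1), and 0 to 1 and 12 to 72 for the interaction. The cause of these moves was not tested. Levels near 0 (CXCL5, CCL20, IFNG) rest on few reads, and depth limits what can be seen there.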
